A study of Saccharomyces cerevisiae with 4 samples.

Results

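BrdU incorporation was examined within 20 kb of the 16 centromeres (CENs) of *S. cerevisiae* in *rif1Δ* and *WT* cells. The members were all bins of the BrdU-IP-Seq profile whose coordinate lay within 20 kb of a CEN, which gave 800 bins of 50 bp per chromosome and 12800 of the 243150 bins in all. Each CEN was placed by a fixed position, in kb, which fell between genes on all 16 chromosomes, in gaps of 630 to 2541 bp. There were 4 libraries, 2 from *rif1Δ* and 2 from *WT* cells, and the deposited table holds 1 averaged value per strain and bin. *rif1Δ* cells had *RIF1* replaced by KanMx, and *WT* cells kept it. Both strains derive from W303, are of mating type a, and share *bar1Δ::hisG*, which slows the breakdown of α-factor, and *LEU2::BrdU-Inc*, which lets yeast take up and use BrdU, besides the alleles *ade2-1*, *can1-100*, *ura3-1*, *trp1-1* and *his3-11,15*. Cells were held in G1 with 7.5 nM α-factor for 4 h at 23°C, then released for 45 min with 200 µg/mL pronase and 400 µg/mL BrdU into hydroxyurea (HU), at 0.2 in the labels, which give no unit, and at 0.2 M in the methods. Each group is 1 strain, and since the replicates were averaged before deposit, no difference between strains given here has a replicate check, an error or a test.

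A budding yeast CEN is a short sequence element that assembles a single kinetochore, the protein complex that attaches a chromosome to the spindle. Yeast CENs replicate early in S-phase, and the kinetochore recruits the Dbf4-dependent kinase (DDK), which activates nearby licensed origins. Rif1 brings the phosphatase Glc7 to chromatin, where it opposes DDK. In HU, which starves cells of deoxyribonucleotides, forks from early origins stall after a short distance, and BrdU, a thymidine analog, marks a tract around each origin that fired.

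As a check of the strain, the bins over *RIF1* (II, 751356 to 757106 in R64) averaged 0.433 in *rif1Δ* and 3.09 in *WT* cells. Over all nuclear bins the mean signal was 12.1 in *rif1Δ* and 12.6 in *WT* cells. The scaling of the strains to each other is not stated in the sources used here, so lower coverage need not mean less BrdU. In 5 stretches on 4 chromosomes (I, II, VI and VIII), bins within 20 kb of a CEN had a signal of 1 or less, 534 bins in *rif1Δ* and 179 in *WT* cells. They lie over retrotransposon genes (YAR009C and YAR010C, YBL005W-A and YBL005W-B, YFL002W-A and YFL002W-B, YHL009W-A and YHL009W-B) with YHL008C and the kinase gene *STE20* beside those on VIII, and over *SSA1*, an Hsp70 gene, and their part in the results was not tested beyond leaving these bins out.

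Pericentric regions had high BrdU signal in both strains, and less of it in *rif1Δ* cells. The mean over the 12800 bins was 31.2 in *rif1Δ* and 45.9 in *WT* cells, against 11.1 in both strains over the remaining nuclear chromosomes and 10.5 in *rif1Δ* and 4.40 in *WT* cells within 20 kb of the chromosome ends. Pericentric regions make up 5.30% of nuclear bins and held 13.7% of the nuclear signal in *rif1Δ* and 19.3% in *WT* cells. The share of pericentric bins with a lower value in *rif1Δ* cells was 88.5%, against 49.2% for the remaining chromosomes and 29.2% near the ends.

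The mean signal was lower in *rif1Δ* cells at 16 of 16 CENs. Among all 300 nuclear windows of 40 kb laid outward from the CENs, 49.3% were lower in *rif1Δ* cells, and among the 284 windows that do not hold a CEN, 46.5%. The log2 ratio, taken as log2((*rif1Δ* + 1)/(*WT* + 1)), had a median of -0.53 over the 16 CENs and of 0.04 over the 284 other windows. It ran from -0.96 to -0.28 over the CENs and from -1.05 to 2.77 over the others, so single windows off the CENs fell as far, but none of the pericentric windows rose. No pericentric window was lower by 2-fold or more, a size that 1.0% of all windows reached.

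CEN3 had the largest relative difference. Its window had a mean of 25.9 in *rif1Δ* and 51.2 in *WT* cells, 0.506 times as high. CEN16 followed with 16.7 in *rif1Δ* and 28.4 in *WT* cells, and CEN7 with 35.0 in *rif1Δ* and 58.5 in *WT* cells. CEN11 had the smallest relative difference, with 46.4 in *rif1Δ* and 56.4 in *WT* cells, 0.821 times as high. CEN6 came next, with 29.7 in *rif1Δ* and 38.1 in *WT* cells. At the other 11 CENs the ratio lay between these. The *WT* means ran from 28.4 at CEN16 to 60.0 at CEN2, and the *rif1Δ* means from 16.7 at CEN16 to 46.4 at CEN11, so the ranges of the strains overlap although each CEN was lower in *rif1Δ* cells. In *WT* cells the pericentric window had the highest mean of all 40 kb windows of its chromosome on 12 of 16 chromosomes and ranked no lower than the third on the others. In *rif1Δ* cells it ranked highest on 7 chromosomes, and its lowest rank was 7, on chromosome XVI.

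**Figure D1:**
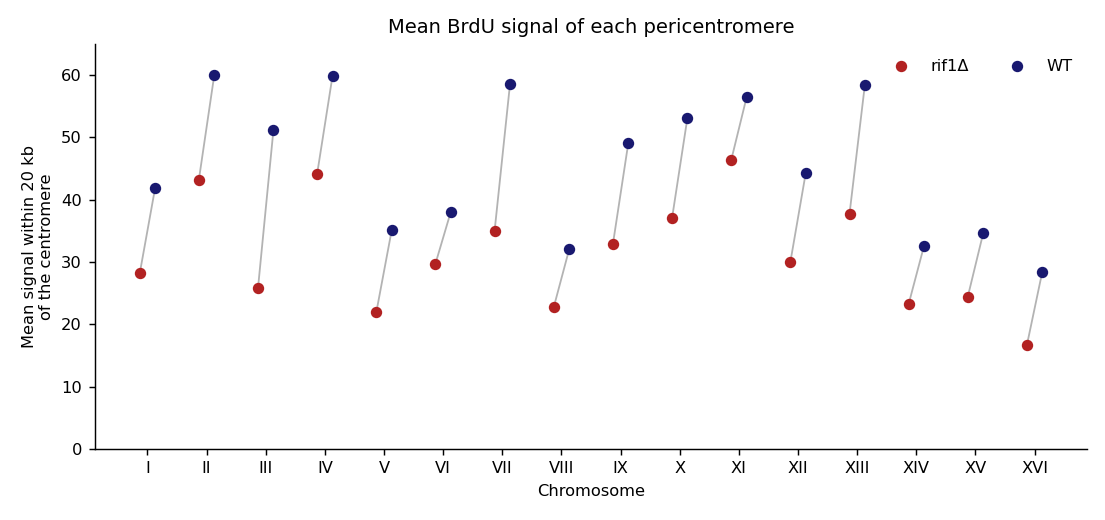
Mean BrdU-IP-Seq signal within 20 kb of the CEN (y axis, averaged and smoothed coverage) for each chromosome (x axis), with *rif1Δ* as red and *WT* as blue points joined by a line. The red point lies below the blue one on all 16 chromosomes, with the largest relative gap on III (25.9 in *rif1Δ* and 51.2 in *WT*) and the smallest on XI (46.4 in *rif1Δ* and 56.4 in *WT*).

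The signal lay in few, sharp peaks. Peaks were taken as local maxima with a height and a prominence of at least 20, at least 1 kb apart, and peaks of the strains within 1 kb of each other as the same peak. By this rule 36 peaks were found in *rif1Δ* and 36 in *WT* cells, 34 of them shared, or 38 in all, between 1 and 3 per CEN and strain. Of the 38, 5.26% (2) were called in *rif1Δ* cells alone, against 38.0% of all 392 nuclear peaks, and 2 in *WT* cells alone, against 8.67%. The summits of the shared peaks lay a median of 50 bp and at most 300 bp apart in the 2 strains. The strains thus differed little in which pericentric peaks were called and where they lay. Peaks were denser here, at 5.62 per 100 kb in both strains, than over the remaining chromosomes, at 2.69 in *rif1Δ* and 1.84 in *WT* cells.

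**Figure D2:**
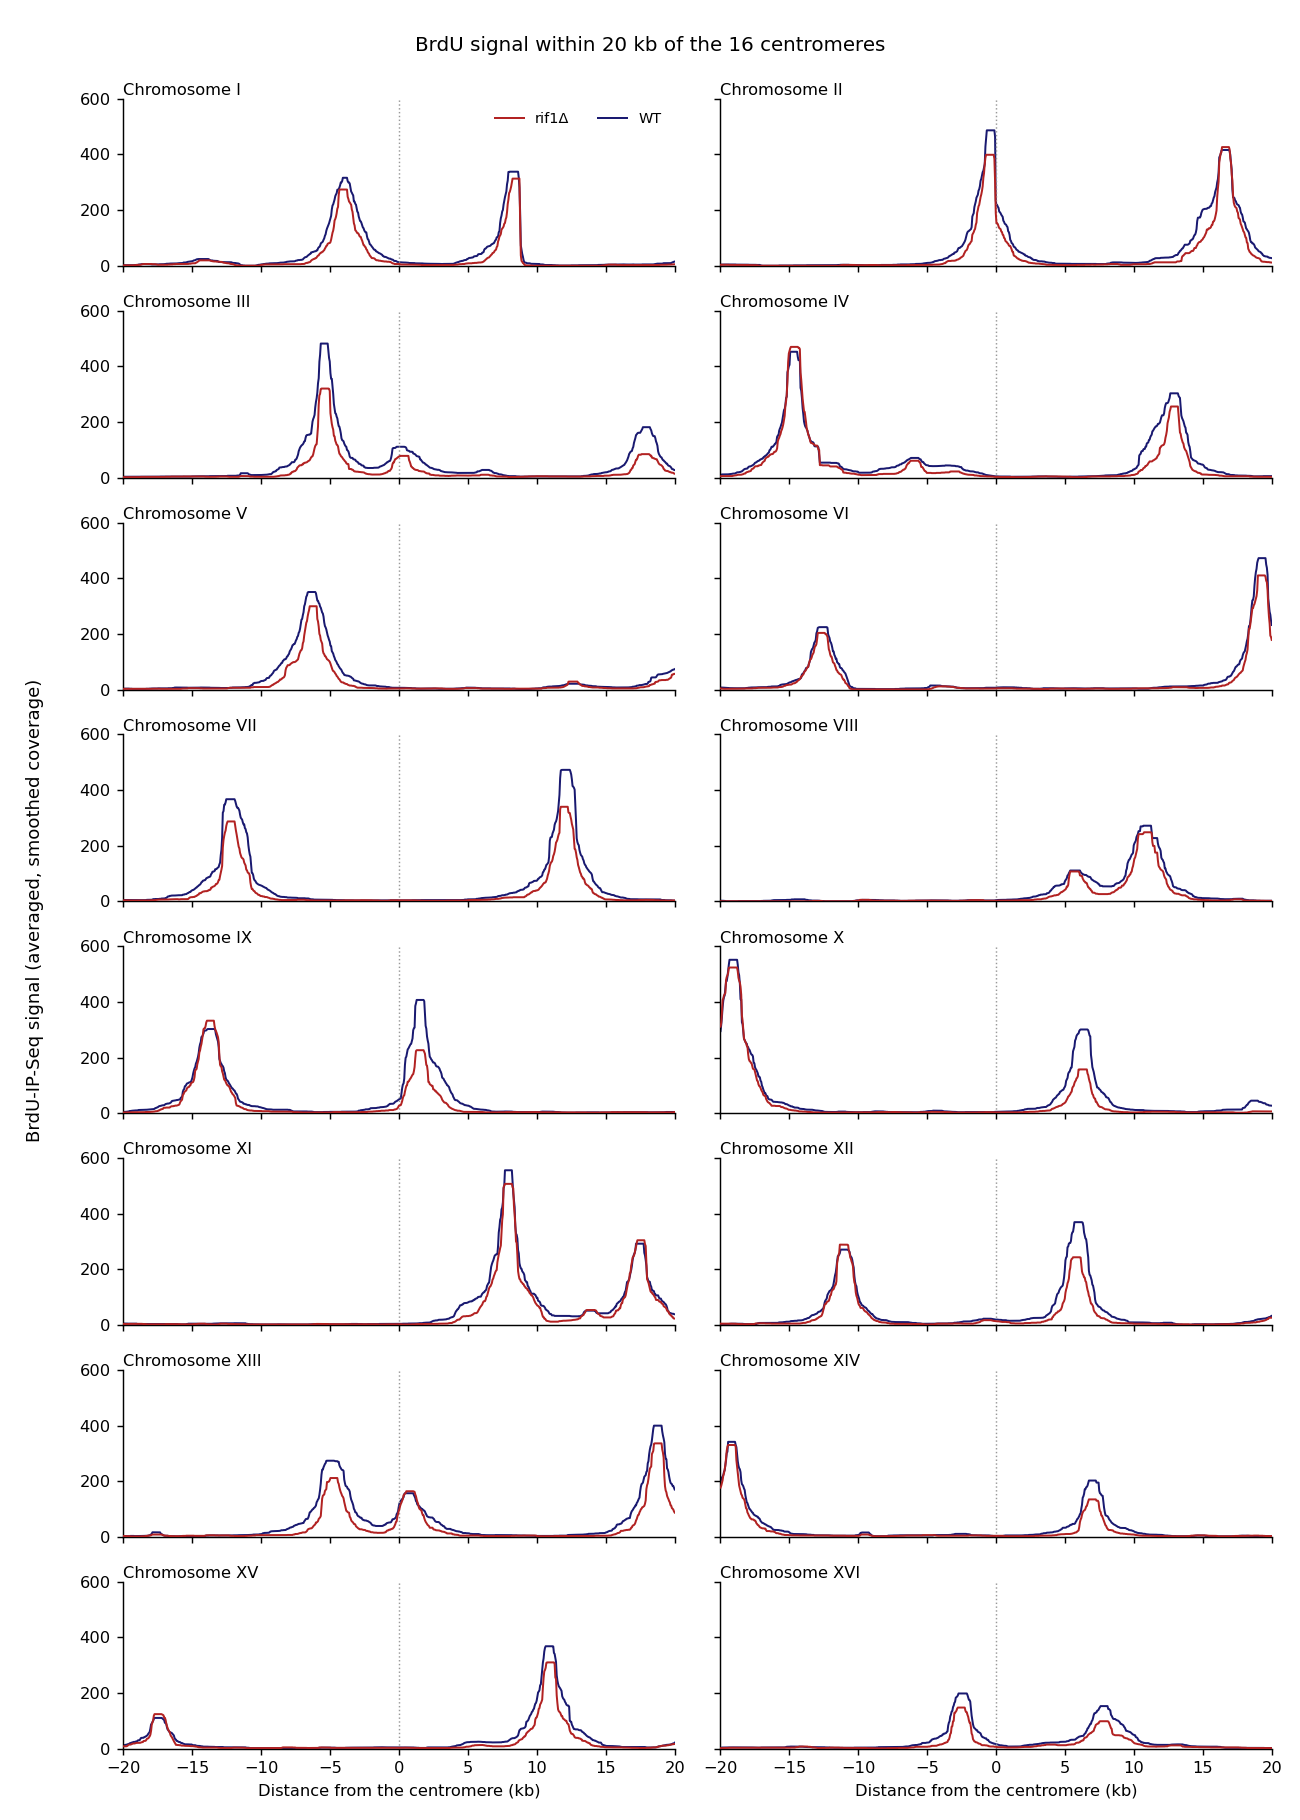
BrdU-IP-Seq signal (y axis, averaged and smoothed coverage) against distance from the CEN (x axis, kb, negative to the left) in 1 panel per chromosome, with *rif1Δ* in red and *WT* in blue and the CEN at the dotted line. The summits fall at the same places in both strains, and the flanks of the blue peaks are broader, as at CEN3 and CEN7.

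Of the 38 peaks, 35 lie within 1 kb of an origin in the study's list, 31 of them with an ARS name, and 3 do not. To the left of the CEN lie 16 peaks and to the right 22. Peaks lie on both sides of 14 CENs in *rif1Δ* and 13 in *WT* cells. On chromosomes VIII and XI no peak was found to the left in either strain. The 20 kb left of CEN8 had a mean of 1.73 in *rif1Δ* and 2.83 in *WT* cells, and 178 of its bins in *rif1Δ* and 94 in *WT* cells were at 1 or less. The 20 kb left of CEN11 had a mean of 3.13 in *rif1Δ* and 3.74 in *WT* cells, without such bins, beside 89.6 in *rif1Δ* and 109.1 in *WT* cells to its right. On chromosome V the only *WT* peak, ARS510, lies to the left.

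The CENs are described by the distance to their nearest peak, which was the same peak in both strains at all 16. The median distance was 5.88 kb in *rif1Δ* and 5.92 kb in *WT* cells, and the nearest peak lay to the right at 10 CENs and to the left at 6.

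At 5 CENs the nearest *WT* summit lay within 3 kb. CEN2, CEN3 and CEN13 share their gap between genes with the origin peak. CEN2 lies between *ECM15* and *NTH2*, which encodes a trehalase, 0.475 kb from the summit of ARS208 in *rif1Δ* and 0.425 kb from it in *WT* cells. The summit reached 399 in *rif1Δ* and 487 in *WT* cells, and in *WT* cells it was the highest peak of its chromosome. The mean within 500 bp of CEN2 was 251 in *rif1Δ* and 328 in *WT* cells, the highest of the 16 CENs in both. CEN3, between YCL001W-B and YCR001W, lies beside ARS308, whose summit reached 78.2 in *rif1Δ* and 111 in *WT* cells. The signal over CEN3 was 71.2 in *rif1Δ* and 109.6 in *WT* cells. The unnamed origin at CEN13, between *YPT7*, a Rab GTPase gene of the vacuole, and *CDC5*, the polo kinase gene, was one of the few peaks that were not lower, with a summit of 164 in *rif1Δ* and 157 in *WT* cells. Even so, the signal over CEN13, 0.775 kb away in *rif1Δ* and 0.725 kb away in *WT* cells, was 93.8 in *rif1Δ* and 107.8 in *WT* cells.

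CEN9 and CEN16 lie on the slopes of their nearest peaks. ARS920, 1.52 kb right of CEN9 in both strains, lies between *SGN1* and *MPH1*, a DNA helicase gene, and reached 226 in *rif1Δ* and 407 in *WT* cells. The signal over CEN9 was 33.4 in *rif1Δ* and 71.8 in *WT* cells. An unnamed origin between *ULA1* and *SNF8* lies 2.52 kb left of CEN16 in *rif1Δ* and 2.42 kb left of it in *WT* cells, with a summit of 148 in *rif1Δ* and 199 in *WT* cells. CEN16, beside *HAT1*, a histone acetyltransferase gene, had 6.92 in *rif1Δ* and 17.0 in *WT* cells. These 2 slopes were lower in *rif1Δ* cells by a larger factor than their summits.

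At 8 CENs the nearest *WT* summit lay between 3 and 8 kb away. CEN1, between *TFC3*, which encodes a subunit of TFIIIC, and *NUP60*, a nuclear pore gene, had 5.92 in *rif1Δ* and 14.7 in *WT* cells, with the summit of ARS108 at 4.08 kb in *rif1Δ* and 3.92 kb in *WT* cells. CEN12, between *DNM1*, a gene of mitochondrial fission, and YLR001C, had 14.4 in *rif1Δ* and 20.2 in *WT* cells, more than other CENs at this distance. The listed origin ARS1208 lies at CEN12 and made no peak of its own by the rule in either strain. CEN4, CEN5, CEN8, CEN10, CEN11 and CEN14 had 2.58 to 3.88 in *rif1Δ* and 3.83 to 6.06 in *WT* cells. Windows of 1 kb at least 10 kb from any listed origin, and so partly chosen by these same data, had a median of 3.18 in *rif1Δ* and 3.11 in *WT* cells. Those CENs were thus close to the genome's floor in *rif1Δ* cells and somewhat above it in *WT* cells. The exception was CEN14, between *DOM34* and *CIT1*, the mitochondrial citrate synthase gene, with 3.88 in *rif1Δ* and 3.83 in *WT* cells.

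At CEN6, CEN7 and CEN15 the nearest summit lay more than 10 kb away. CEN6, between *DEG1* and *LOC1*, had 3.76 in *rif1Δ* and 7.0 in *WT* cells. CEN15, between *PHO80*, a cyclin gene, and *RRP6*, an exosome nuclease gene, had 3.56 in *rif1Δ* and 5.0 in *WT* cells. CEN7, between *ERG26* and *EFM5*, had 3.86 in *rif1Δ* and 3.72 in *WT* cells, at about the same distance from ARS719 on its left and ARS720 on its right. No CEN of this group was itself part of a BrdU-labeled tract.

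Over the 16 CENs, the signal at the CEN itself was lower in *rif1Δ* cells at 14 and higher at 2, CEN7 and CEN14, both near the floor. For comparison, 51.5% of all nuclear 1 kb windows were lower in *rif1Δ* cells. The median was 3.88 in *rif1Δ* and 6.53 in *WT* cells, and the median log2 ratio -0.50, or -0.21 with a pseudocount of 10 in place of 1. The lowest log2 ratios, -1.18, were at CEN1 and CEN16. The signal exceeded the 99th percentile of the windows far from listed origins (14.7 in *rif1Δ* and 13.9 in *WT* cells) at 4 CENs in *rif1Δ* and 7 in *WT* cells. These were CEN2, CEN3, CEN9 and CEN13 in both strains, with CEN1, CEN12 and CEN16 besides in *WT* cells.

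**Figure D3:**
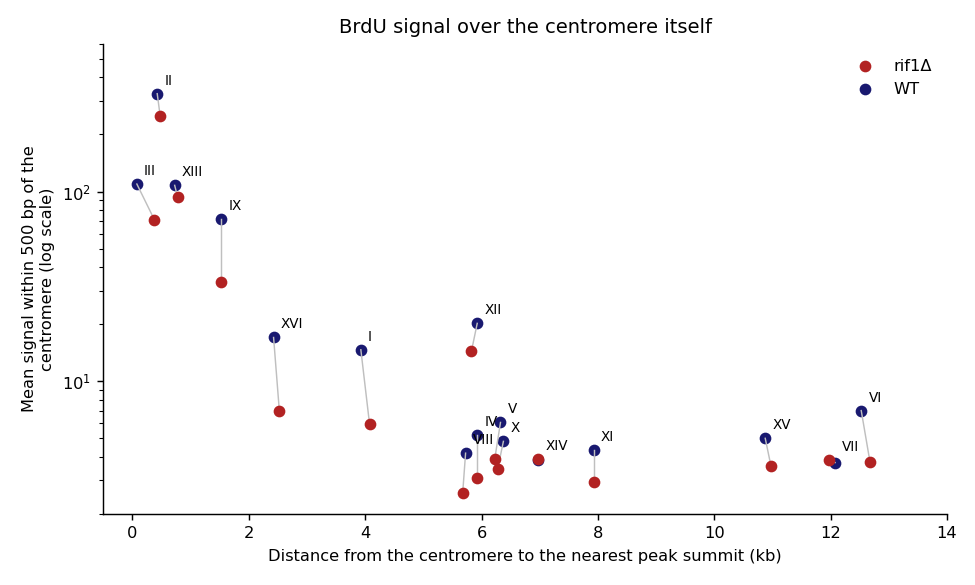
Mean signal within 500 bp of each CEN (y axis, log scale) against the distance from the CEN to the nearest peak summit of the same strain (x axis, kb), with *rif1Δ* in red, *WT* in blue and gray lines joining the 2 strains of a chromosome. The signal falls off over the nearest 3 to 4 kb, and the red point lies below the blue one except on VII and XIV, where they nearly coincide.

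Signal at the peaks themselves changed less than the mean over the windows. The mean within 500 bp of the peak was lower in *rif1Δ* cells at 29 of 38 pericentric peaks, against 35.7% of all nuclear peaks. The median log2 ratio was -0.27, against 0.39 for the 319 peaks of the remaining chromosomes and 2.56 for the 35 subtelomeric ones. These sets pool peaks of either strain, and those called in *rif1Δ* cells alone entered only through their height there. Such peaks were 2 of the 38 pericentric, 120 of the 319 remaining and 27 of the 35 subtelomeric ones. For shared peaks alone the medians were -0.27, 0.04 (170 peaks) and 0.84 (5 peaks), in the same order. For the 34 shared peaks the summits had a median of 281 in *rif1Δ* and 309.6 in *WT* cells, and 27 were lower in *rif1Δ* cells by the mean within 500 bp, against 50.2% of all shared nuclear peaks. Of the shared peaks with a mean signal of at least 100 over the strains, 78.1% of the 32 pericentric and 46.8% of the 94 on the remaining chromosomes were lower in *rif1Δ* cells, with median log2 ratios of -0.25 and 0.01. A change of 2-fold or more was seen at 3 pericentric peaks, all lower. Of all nuclear peaks, 7.4% were lower and 40.1% higher by this much, shares that also pool peaks called in 1 strain alone.

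The highest pericentric peaks kept most of their signal. ARS1014 (chromosome X, 417325, beside *NOP9*) reached 523.5 in *rif1Δ* and 551 in *WT* cells. ARS1114 (XI, 448125, between *ECM9* and YKR005C) reached 507 in *rif1Δ* and 556 in *WT* cells. ARS606 (VI, 167850, between the tRNA gene *SUP11* and *DCV1*) reached 409.9 in *rif1Δ* and 472 in *WT* cells. ARS415 (IV, 435150, beside YDL007C-A) and ARS209 (II, 254925, between *FLR1* and the histone H4 gene *HHF1*) were slightly higher in *rif1Δ* cells. ARS415 reached 469.8 in *rif1Δ* and 452 in *WT* cells, and ARS209 reached 426.5 in *rif1Δ* and 416 in *WT* cells. ARS307 (III, 109000, between *LDB16* and *PGS1*) and ARS720 (VII, 509025, between *STF2* and *SEC9*, a SNARE gene) were lower, with 320.1 in *rif1Δ* and 482 in *WT* cells at ARS307, and 339.8 in *rif1Δ* and 472.5 in *WT* cells at ARS720.

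The largest falls were at ARS1016 on chromosome X (455125, between *TDH2*, a glycolytic dehydrogenase gene, and *MET3*, of sulfate assimilation), where a peak was called in *WT* cells alone. The mean within 500 bp was 6.07 in *rif1Δ* and 42.3 in *WT* cells, a log2 ratio of -2.61. The other peak called in *WT* cells alone, ARS107.5 on chromosome I (137325, in *FUN14*), was weak, with 18.6 in *rif1Δ* and 23.8 in *WT* cells. ARS309 on chromosome III (132275, in *ADY2*, an acetate transporter gene) had 82.3 in *rif1Δ* and 174 in *WT* cells, a log2 ratio of -1.07. ARS1015 on chromosome X (442725, between *MRX12* and *SAG1*, the α-agglutinin gene) had 145 in *rif1Δ* and 294 in *WT* cells, a log2 ratio of -1.01. ARS920 beside CEN9 (log2 ratio -0.85) and ARS1209 on chromosome XII (156775, between *NOC3*, a gene of pre-replicative complex and ribosome assembly, and *CMS1*; log2 ratio -0.63) followed. Large falls thus stood at both ends of the 20 kb, and within one chromosome unequal changes stood side by side: on chromosome X, ARS1014 fell by 0.0511 on the log2 scale.

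Rises were small. The largest was at a peak called in *rif1Δ* cells alone, on chromosome V (164625, in *PAC2*, a gene of tubulin folding) with no listed origin within 1 kb, where the mean within 500 bp was 25.4 in *rif1Δ* and 20.4 in *WT* cells, a log2 ratio of 0.30. ARS1512 (XV, 309125, between *RCL1* and *MDM12*) had 115 in *rif1Δ* and 105.8 in *WT* cells. ARS919 (IX, 342050, between *FAA3*, a fatty acid activation gene, and *URM1*) had 319 in *rif1Δ* and 297 in *WT* cells. A strong peak with no listed origin within 1 kb, on chromosome XII 11.1 kb left of CEN12 (139850, in *SPO75*), had 275 in *rif1Δ* and 264 in *WT* cells. The other peak called in *rif1Δ* cells alone, on chromosome XI (454075, in *RSC4*, a chromatin remodeler gene), had 51.2 in *rif1Δ* and 49.9 in *WT* cells, so that it differed in shape and not in level.

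The fall was larger close to the CEN. The mean signal in *rif1Δ* cells was 0.585 times that in *WT* cells at 0 to 5 kb from the CENs (22.9 in *rif1Δ* and 39.2 in *WT* cells), 0.614 times at 5 to 10 kb, 0.731 times at 10 to 15 kb and 0.779 times at 15 to 20 kb. In each of the 4 zones it was lower in *rif1Δ* cells at 16 of 16 CENs. Farther out the ratio was 0.868 at 20 to 40 kb (12.6 in *rif1Δ* and 14.6 in *WT* cells), 0.953 at 40 to 60 kb, 0.952 at 60 to 80 kb and 0.844 at 80 to 100 kb, leaving out the chromosome ends. In these wider zones, in the same order, the mean was lower in *rif1Δ* cells on 13, 11, 13 and 11 of 16 chromosomes. Of the 17 shared peaks within 10 kb, 16 were lower in *rif1Δ* cells, with a median log2 ratio of -0.43. Of the 17 at 10 to 20 kb, 11 were lower, with a median of -0.14. The share over all shared nuclear peaks was 50.2%, which the outer 17 were near. The exception within 10 kb was the unnamed origin at CEN13.

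On both sides of the limit of 20 kb the peaks varied. The outermost peaks inside it, ARS606 at 19.2 kb, ARS1424 at 19.2 kb and ARS1014 at 19.1 kb, had log2 ratios of -0.23, -0.06 and -0.05. The nearest peaks outside it, an unlisted one on chromosome XII at 20.4 kb, an unnamed origin on XV at 21.7 kb and ARS511 on V at 21.8 kb, had -0.23, 0.96 and -0.07. Of the 22 peaks at 20 to 40 kb, 11 were lower in *rif1Δ* cells.

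**Figure D4:**
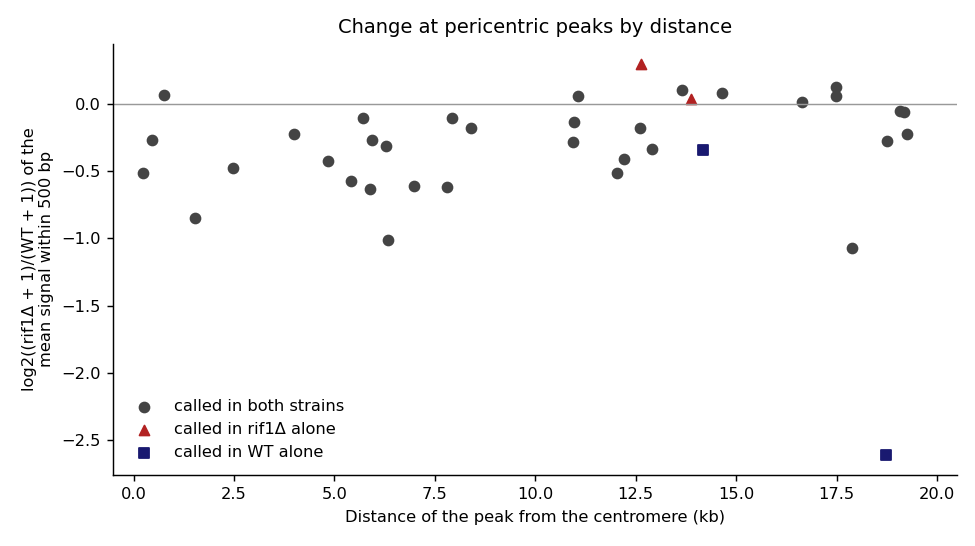
Log2 ratio of the mean signal within 500 bp of each pericentric peak (y axis, positive where *rif1Δ* was higher) against its distance from the CEN (x axis, kb), for 34 shared peaks (circles), 2 called in *rif1Δ* alone (red triangles) and 2 in *WT* alone (blue squares). Peaks above 0 lie almost all beyond 10 kb, the peak at CEN13 being the exception.

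Most of the difference in signal lay away from the summits. Of the whole difference in summed pericentric signal, 61.1% lay 1 kb or more from the nearest summit, where 42.8% of the *WT* signal lay. This includes 6.08% of the difference from bins beyond 5000 bp, which need not be flanks, although some *WT* tracts reached that far, as 7700 bp left of ARS1209. Within 500 bp of a summit the mean was 227 in *rif1Δ* and 273 in *WT* cells, 0.834 times as high. At 1000 to 1500 bp it was 63.4 in *rif1Δ* and 105.3 in *WT* cells, 0.603 times as high, and at 3000 to 4000 bp 8.17 in *rif1Δ* and 19.7 in *WT* cells, 0.415 times as high. The ratio was lowest there. It was 0.459 at 4000 to 5000 bp, and beyond 5000 bp, where 6055 of the 12800 bins lie, it was 0.657, with a mean of 3.61 in *rif1Δ* and 5.50 in *WT* cells. The flanks also fell relative to the summit elsewhere, though from another level. On the remaining chromosomes the ratio was 1.20 within 500 bp, 0.935 at 1000 to 1500 bp and 0.672 at 3000 to 4000 bp. Beyond 5000 bp it was 0.976, with a mean of 3.47 in *rif1Δ* and 3.55 in *WT* cells. Distances were taken to summits of either strain, which there include 120 of 319 peaks called in *rif1Δ* cells alone and so high in them. Around the 170 shared peaks there, the ratio was 1.04 at the summit and 0.848 and 0.847 at 1000 bp on either side. Around the 34 shared pericentric peaks it was 0.844 at the summit and 0.643 and 0.644 at 1000 bp.

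Bins away from peaks were also taken CEN by CEN, although the share of the difference that lay in them was not computed per CEN. Over the bins more than 2 kb from any peak, the mean was lower in *rif1Δ* cells at 16 of 16 CENs, between 0.421 and 0.593 times that in *WT* cells, with a median over CENs of 6.21 in *rif1Δ* and 12.4 in *WT* cells. The mean over such bins was not computed for windows off the CENs. At 2000 to 3000 bp from a summit, 99.3% of pericentric bins and 53.2% on the remaining chromosomes were lower in *rif1Δ* cells. Beyond 5000 bp the shares were 80.9% and 48.3%. Summits of either strain counted here too, those called in *rif1Δ* cells alone among them. Over the bins closer to a peak the ratio ran from 0.526 to 0.883, and at 15 of 16 CENs it was above the ratio of the bins farther away. At CEN16 the ratios were nearly equal, 0.589 away from peaks and 0.585 near them. The same count was not made off the CENs. On the remaining chromosomes the pooled ratio also fell, from 1.20 within 500 bp of a summit to 0.742 at 2000 to 3000 bp.

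**Figure D5:**
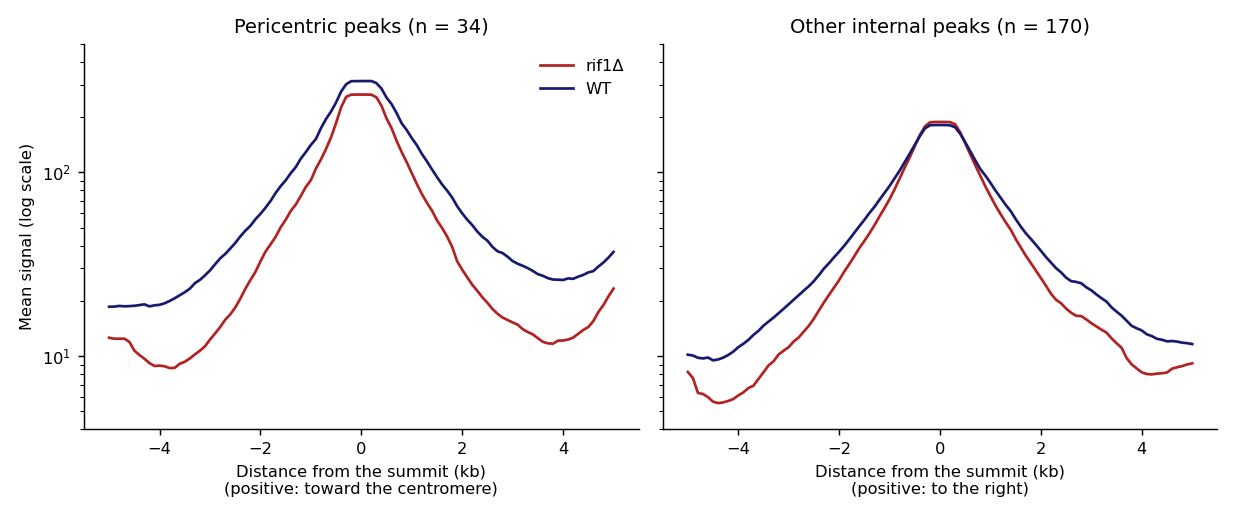
Mean signal (y axis, log scale) against distance from the summit (x axis, kb) for the 34 shared pericentric peaks, turned so that the CEN lies to the right, and for 170 shared peaks of the remaining chromosomes, with *rif1Δ* in red and *WT* in blue. The red curve drops faster from the summit in both panels, and at the summit it lies below the blue one only in the pericentric panel (265 in *rif1Δ* and 314 in *WT*).

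The width of a peak was taken at 50% of its summit. The shared pericentric peaks had a median width of 1500 bp in *rif1Δ* and 1875 bp in *WT* cells, and 30 of 34 were narrower in *rif1Δ* cells, against 89.5% of all shared nuclear peaks, so that narrowing as such was as common elsewhere. BrdU-labeled tracts were taken as the unbroken bins around a summit above the 99th percentile of the windows far from origins. The tract was shorter in *rif1Δ* cells at 34 of 34 shared pericentric peaks, against 86.1% of all shared nuclear peaks. For peaks with a mean signal of at least 100, the median tract was 5600 bp in *rif1Δ* and 9075 bp in *WT* cells at pericentric peaks, and 5600 bp in *rif1Δ* and 7725 bp in *WT* cells on the remaining chromosomes. A tract that held several peaks entered these medians once for each of them, and peaks were denser near the CENs. With each tract counted once, over all pericentric peaks, the median was 5.5 kb in *rif1Δ* and 8.7 kb in *WT* cells. This count was not made for the remaining chromosomes. A lower peak crosses a fixed threshold sooner, so tract length and height are not separate measures.

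Some neighboring peaks that shared a tract in *WT* cells had separate tracts in *rif1Δ* cells. Counting only peaks within 20 kb of the CEN, tracts with at least 2 peaks numbered 2 in *rif1Δ* (VIII and XI) and 5 in *WT* cells (III, IV, VIII, XI and XIII). On chromosome X, the *WT* tract of ARS1016 (454225 to 462225) also held the summit of ARS1017, which lies outside the 20 kb. On chromosome III, ARS307 and ARS308 lay in 1 tract of 16500 bp over CEN3 in *WT* cells, and in tracts of 5500 and 3350 bp in *rif1Δ* cells. On chromosome XI, ARS1114 and ARS1114.5 lay in 1 tract of 21700 bp in *WT* cells, and in tracts of 6700 and 8750 bp in *rif1Δ* cells, where ARS1114.5 shared its tract with the peak in *RSC4*. On chromosome XIII, ARS1309 and the origin at CEN13 lay in 1 tract of 14700 bp in *WT* cells, and in tracts of 5500 and 4700 bp in *rif1Δ* cells. The CEN lay inside a tract on 4 chromosomes in *rif1Δ* cells (II, III, IX and XIII) and on 6 in *WT* cells, with XII and XVI besides. Per CEN, bins above the threshold covered 7.20 to 17.2 of the 40 kb in *rif1Δ* and 11.2 to 25.7 kb in *WT* cells, less in *rif1Δ* cells at all 16. In sum they made up 27.2% of pericentric bins in *rif1Δ* and 42.6% in *WT* cells, against 10.4% in *rif1Δ* and 10.1% in *WT* cells for the other nuclear bins. The count per 40 kb window was not made off the CENs.

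The extent of the peaks toward and away from the CEN was compared. Of the 31 shared peaks more than 1 kb from the CEN, the distance at which the signal fell to 50% was longer toward the CEN than away from it at 18 in *rif1Δ* and 21 in *WT* cells, and shorter at 11 in *rif1Δ* and 9 in *WT* cells. The medians were 850 bp toward and 700 bp away in *rif1Δ* cells, and 1000 bp toward and 900 bp away in *WT* cells, a difference of 2 to 3 bins. By tract the medians were 2650 bp toward and 2700 bp away in *rif1Δ* cells, and 4350 bp toward and 4250 bp away in *WT* cells, so that the direction in *rif1Δ* cells turned with the measure. By side, the median log2 ratio of the shared peaks was -0.22 for the 15 left of the CEN and -0.28 for the 19 right of it.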

How the data were processed

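The profile comes from 4 BrdU-IP-Seq libraries of HU-treated cells, 2 *rif1Δ* and 2 *WT*. Per the methods, the authors sorted reads by barcode (FASTX), removed 10 bp, mapped them to R64 (Bowtie2; versions not given in the sources used here), binned them at 50 bp and smoothed by median over 1 kb. They then quantile-normalized the replicates, took their average and smoothed it once more. Bedtools is also named in the submitters' notes. The deposited signal is this coverage, 1 column per strain, so the depth per library and the error between replicates are unknown. Smoothing flattens summits and spreads signal between bins.

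Here, peaks were called along whole chromosomes (height and prominence of at least 20, spacing 1 kb), matched within 1 kb, and kept within 20 kb of the CEN. Ratios used a pseudocount of 1. Origin names came from the study's supplementary list and genes from RefSeq's R64 table. All CENs are described. Genes are named where they flank a CEN or lie at the peak nearest to one, at the 5 highest peaks per strain, or at the 5 largest falls and 5 largest rises. *FUN14*, *RSC4* and *SPO75* were added after their values were seen. Remaining chromosomes are nuclear bins more than 20 kb from CENs and ends. The members and measures were chosen with earlier results of these data known. Peak calling was tested on simulated, widely spaced peaks, a setting that does not cover close neighbors or the weakest peaks called here. No sequence is shown, since no genome was used here. Python 3.11.15, numpy 2.4.6, scipy 1.17.1, pandas 2.3.3 and matplotlib 3.10.9 were used.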

Additional observations from a re-analysis of the deposited data

How the results depend on the processing

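The mean signal stayed lower in *rif1Δ* cells at 16 of 16 CENs under all 6 settings run: windows of 10 and 30 kb, both other scalings, the median of bins in place of the mean, and leaving out bins at 1 or less. The median log2 ratio over CENs was -0.53 and moved to -0.78 with a window of 10 kb and to -0.91 with the median of bins, which by construction gives summits less weight. With a window of 10 kb, 17 peaks were left in *rif1Δ* and 17 in *WT* cells, 17 of them shared. Scaling to an equal nuclear total gave -0.47 for the CENs and -0.21 for the peaks. Other settings for peak height, spacing, matching, pseudocount, windows and the place of the CEN moved no count by over 1.5 times and no median by more than the SD over members, although a pseudocount of 10 gave -0.21 in place of -0.50 for the log2 ratio over the CEN itself. Leaving out each chromosome in turn gave -0.55 to -0.51 for the CENs. The tract was shorter in *rif1Δ* cells at 34 of 34 shared pericentric peaks also with thresholds of 10 and 30 and with equal totals, against 80.6%, 68.0% and 82.3% of the 175 other shared peaks. Leaving out chromosomes, the lowest bins and the tract settings were chosen after seeing the data. No paired analysis was possible because replicates were merged into 1 value per strain before deposit, which also kept either replicate from being left out.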

Other observations

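At CEN2 the profile stepped down in both strains within 50 bp of the position used for the CEN, which is given to 0.1 kb. Neighboring bins there had 304 and 190 in *rif1Δ* and 463 and 234 in *WT* cells. At the other 15 CENs the largest step between neighboring bins within 500 bp was at most 17.5 in *rif1Δ* and 49.2 in *WT* cells. The step was picked out after the values were seen, and no explanation was tested.

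Of 41 listed origins with a midpoint within 20 kb of a CEN, 6 made no peak within 1 kb in either strain. Their signal within 500 bp of the midpoint was lower in *rif1Δ* cells at all 6, as at 36 of all 41. The share over listed origins elsewhere was not counted. Of nuclear 1 kb windows, most of which hold no listed origin, 51.5% were lower. ARS1113.5 on chromosome XI, on the slope of ARS1114, had 26.7 in *rif1Δ* and 71.3 in *WT* cells, and ARS1622.5 on chromosome XVI had 43.4 in *rif1Δ* and 84.1 in *WT* cells. ARS1208 at CEN12 had 12.9 in *rif1Δ* and 18.9 in *WT* cells. The 3 unnamed ones had 7.83 to 13.8 in *rif1Δ* and 21.3 to 24.9 in *WT* cells.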
